A study of Mus musculus with 25 samples.

Results

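The chemokine, interleukin and inflammatory signaling genes of the sh*Rb* mouse pituitary were taken by symbol. A gene was a member if its symbol began with Ccl, Ccr, Cxcl, Cxcr or Il followed by a number, or if it was *Ptgs2*, *Osmr*, *C5ar1*, *Nfkbia*, *Nfkb1*, *Tnfaip3* or *Lif*. *Tnf*, also on that list of 8 symbols, was not listed in either table. This gave 84 members among 15768 genes listed in either table. All 84 were listed and tested in the long-term experiment, and 50 of them were listed in the short-term experiment, where 49 passed the filter on low reads (*Il22* did not). The 84 members were 23 chemokine ligands, 7 chemokine receptors, 14 interleukins, 29 interleukin receptor chains, 2 proteins that block interleukins, 2 IL-1 receptor-like synaptic proteins and the 7 listed signaling genes.

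In sh*Rb* mice the reverse transactivator is made from the broadly active *Rosa26* promoter. Doxycycline (dox) in the drinking water then switches on an shRNA against *Rb*, linked to GFP, from the *Col1a1* locus. All mice came from 1 embryonic stem cell clone, shRb5-4, and every group had been on dox, so that no group was never treated. The long-term experiment (poly(A) libraries) held 3 female mice after 6 weeks on dox (6w+dox) and 4 mice after 12 weeks on dox (12w+dox, 2 female and 2 male). It also held 5 mice with 6 weeks on dox followed by 6 weeks off dox (12w-res, 3 female and 2 male). The short-term experiment (rRNA-depleted libraries) held 3 male mice after 16 weeks on dox (16w +dox) and mice taken 1 day (1d -dox, 4 female), 3 days (3d -dox, 3 male) or 5 days (5d -dox, 3 female) after dox removal. Each sample was a whole pituitary, taken as 1 mouse, and the ages of single mice were not given in the sources used here.

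Chemokines are small secreted proteins that guide the movement of leukocytes through G protein-coupled receptors of the Ccr and Cxcr families. Interleukins signal through pairs of receptor chains, of which several are shared, as *Il6st* (gp130) is shared by IL-6, LIF and oncostatin M, and *Il2rg* by IL-2, IL-4, IL-7, IL-15 and IL-21. Receptors of the IL-1, TNF and Toll-like families lead to NF-kB, which in turn induces many chemokines and its own inhibitors *Nfkbia* (IkB-alpha) and *Tnfaip3* (A20). In the pituitary, folliculostellate cells, macrophages and endothelium are known sources of cytokines, and IL-6 and LIF are known to act on POMC-producing cells.

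The promoters of 4 members are shown because they hold matches to motifs of NF-kB, of interferon-regulated factors or of E2F, the factor held by RB. Each is the 250 bases before the start of a RefSeq transcript (GRCm38.p6, minus strand of the chromosome, written in the direction of transcription), with the matches in capitals. They are *Nfkbia* at chr12:55492648-55492897, *Tnfaip3* at chr10:19015411-19015660, *Cxcl10* at chr5:92348890-92349139 and a start site within *Il16* at chr7:83655496-83655745.
Nfkbia: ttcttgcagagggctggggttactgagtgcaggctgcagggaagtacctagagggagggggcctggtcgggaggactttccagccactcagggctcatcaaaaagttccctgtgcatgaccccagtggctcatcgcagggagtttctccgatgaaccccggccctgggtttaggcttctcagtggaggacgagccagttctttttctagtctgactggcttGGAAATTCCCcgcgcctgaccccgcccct
Tnfaip3: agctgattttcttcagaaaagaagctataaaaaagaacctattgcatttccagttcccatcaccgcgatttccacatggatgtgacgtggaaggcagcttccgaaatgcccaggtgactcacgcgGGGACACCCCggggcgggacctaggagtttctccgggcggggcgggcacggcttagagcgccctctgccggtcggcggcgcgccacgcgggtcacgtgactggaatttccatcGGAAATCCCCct
Cxcl10: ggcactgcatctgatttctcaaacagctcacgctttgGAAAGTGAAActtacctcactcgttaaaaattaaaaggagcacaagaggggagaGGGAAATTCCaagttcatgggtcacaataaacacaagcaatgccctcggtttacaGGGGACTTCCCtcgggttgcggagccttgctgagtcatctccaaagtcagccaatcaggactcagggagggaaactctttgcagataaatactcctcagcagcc
Il16: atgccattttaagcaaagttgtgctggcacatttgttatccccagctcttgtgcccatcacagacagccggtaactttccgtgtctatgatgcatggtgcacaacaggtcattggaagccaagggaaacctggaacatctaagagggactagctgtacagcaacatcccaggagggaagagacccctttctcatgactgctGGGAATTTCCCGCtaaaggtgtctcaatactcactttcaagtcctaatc
In *Nfkbia*, *Tnfaip3* and *Il16* the capitals are matches to the NF-kB consensus, and in *Il16* the last letters are also a match to E2F (TTTCCCGC), which overlaps it. In *Cxcl10* the first capitals are a match to the interferon-stimulated response element (GAAA repeated after 2 bases) and the others are NF-kB matches. RefSeq promoters were matched for 63 of the 84 members, 79 promoters in all. On either strand, the NF-kB consensus was found in 11 of the 79 (13.9%) and in 7.25% of all 32851 promoters of that length, and the 11 were those of *Ccl9*, *Ccr1*, *Cxcl1*, *Cxcl10*, *Il16*, *Il1r1*, *Il22ra1*, *Il2ra*, *Lif*, *Nfkbia* and *Tnfaip3*. The E2F motif (TTTCCCGC, TTTCGCGC, TTTGGCGC or TTTGCCGC) was found in 1 of the 79, that of *Il16*, and in 1.86% of all promoters. The interferon motif was found in 2 (*Cxcl10* and *Cxcl14*; 2.98% of all) and a STAT motif (TTCNNNGAA) in 6 (7.02% of all). These are matches of letters and no measure of binding.

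Between 19066053 and 28968476 reads per mouse lay on listed genes in the long-term experiment, and between 9573101 and 13036900 in the short-term experiment. In the short-term experiment a further 68.8% to 75.0% of all reads per mouse lay in lines that name no gene and were left out. That share was not computed for the long-term experiment. *Rb1*, the target of the shRNA, averaged 18.2 ± 1.66 FPM (SD, n = 5) in 12w-res, against 3.16 ± 1.70 (n = 3) after 6 weeks and 3.21 ± 0.700 (n = 4) after 12 weeks on dox, where FPM is the authors' signal of reads scaled by DESeq2 size factors. In the short-term experiment *Rb1* was called in no comparison (group means 4.19 to 5.12 FPM). *Pomc*, the hormone precursor of the tumor's cell type, took 12.89% to 23.05% of the reads at 12w+dox and 39.1% to 43.23% in 12w-res, so that a scaling by total reads gives other values than size factors. Scaling by totals shifted the median over all genes of the log2 fold change from -0.01 to 0.29 (12w+dox against 6w+dox), from 0.00 to -0.61 (12w-res against 12w+dox) and from -0.02 to -0.33 (12w-res against 6w+dox). Values below are on the authors' scale unless they are said to be scaled by totals.

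Cell type marker lists moved with the groups too. The summed FPM of 14 macrophage and microglia markers ranged from 127 to 185 at 6w+dox, from 137 to 180 at 12w+dox and then from 214 to 315 in 12w-res. That of 5 pan-leukocyte markers ranged from 21.1 to 27.3, from 17.2 to 26.8 and from 36.0 to 57.8. Both sums were thus higher in each 12w-res mouse than in any mouse on dox. By gene, 3 of the 14 macrophage markers were called higher and 1 lower in 12w-res than at 12w+dox (median log2 fold change 0.73). Against 6w+dox, 3 were called higher and 0 lower, with 12 above 0 and 2 below. T and NK cell markers were low, with *Cd3e*, *Cd3d*, *Klrb1c* and *Trac* not listed, and 6 others summed to 8.20 to 9.08 at 6w+dox, 4.66 to 6.41 at 12w+dox and then 4.59 to 10.1 in 12w-res. Of the B and plasma cell markers *Ms4a1* and *Mzb1* were not listed, of 7 neutrophil markers *Ly6g* and *Retnlg* were not, and of the 6 mast cell markers 1 was. Endothelial markers (8 genes) summed to 192 to 245 at 6w+dox, 65.1 to 136 at 12w+dox and then 207 to 291 in 12w-res. Fibroblast markers (7 genes) summed to 284 to 307, 91.5 to 315 and 501 to 1175, and pericyte markers (7 genes) to 160 to 214, 131 to 301 and 522 to 627. By gene, the fibroblast markers *Dcn*, *Lum* and *Pdgfra* were called lower at 12w+dox than at 6w+dox (median log2 fold change of the 7 -1.20). In 12w-res 6 of them were called higher than at 12w+dox (median 1.71). Against 6w+dox only *Col1a1* and *Col3a1* were called higher (median 0.29), and 2 of the 7 lay below 0. Stem and folliculostellate cell markers (7 genes) summed to 211 to 294, 132 to 384 and 297 to 825. Of these, 4 were called lower at 12w+dox than at 6w+dox (median log2 fold change -1.03) and 3 higher in 12w-res than at 12w+dox. Against 6w+dox, 1 was called higher and 2 lower in 12w-res (median -0.48), with 4 of the 7 below 0. Neural lobe markers (7 genes) summed to 127 to 230, 48.3 to 87.1 and 133 to 214, with 5 called lower at 12w+dox than at 6w+dox (median -2.12) and 4 lower in 12w-res than at 6w+dox. In bulk tissue, more cells of a type and more RNA per cell cannot be told apart, and the part of these lists in the results below was not tested. Of the labelled tissue's own markers, 7 melanotroph markers with *Pomc* summed to 99276 FPM or more in each of the 12 mice, and 7 of 11 markers of the other hormone cells were called lower at 12w+dox than at 6w+dox.

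**Figure D1:**
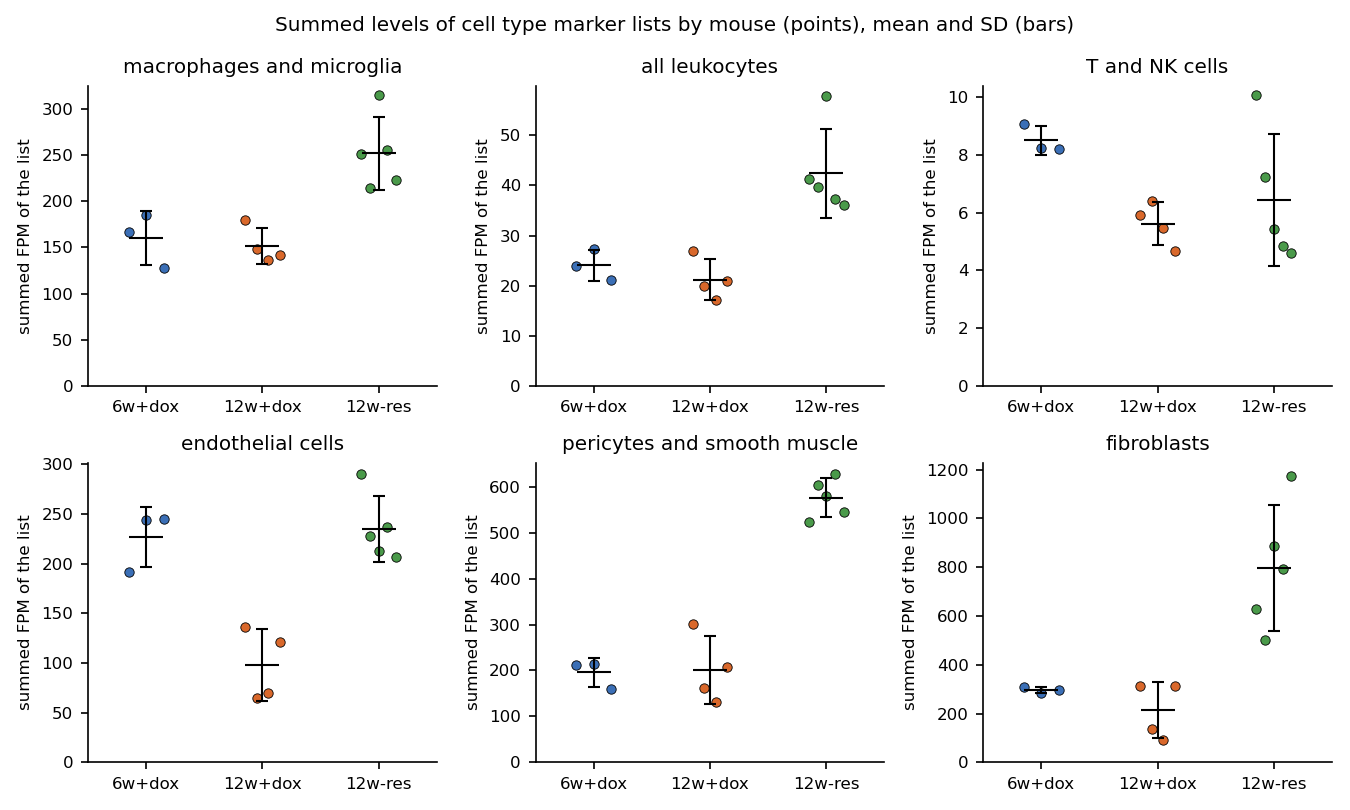
Summed FPM of 6 cell type marker lists (y axis, from 0) in each long-term mouse by group (x axis), on the authors' scale. Lines give the mean and bars the SD. The macrophage, leukocyte, pericyte and fibroblast sums are higher in each 12w-res mouse than in any mouse on dox, the endothelial sum is lowest at 12w+dox, and the T and NK cell sums are lower in each 12w+dox mouse than in any 6w+dox mouse, with 12w-res reaching into both ranges.

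Levels of members differed widely. Per kilobase of transcript, the highest chemokine ligand was *Cxcl14*, at 61.8 FPM per kb at 6w+dox, 35.3 at 12w+dox and then 50.2 in 12w-res. It was the ligand with most reads in both experiments. *Cxcr4*, the receptor of CXCL12, was the highest receptor at 4.94, 4.68 and 5.00 FPM per kb. By the mean of the 3 long-term groups, the receptor chains with the highest FPM were *Il6st* (47.1 ± 7.12, 62.0 ± 8.36 and 70.6 ± 9.83 FPM, SD) and *Il10rb*, the shared second chain of the IL-10 and IL-22 receptors (54.7 ± 13.9, 42.6 ± 7.51 and 78.4 ± 9.68 FPM), while at 12w+dox *Il6ra* stood above both (88.9 ± 26.2 FPM). Per kilobase, *Il10rb* was the higher of the pair (19.6, 15.3 and 28.1 against 5.43, 7.14 and 8.14 FPM per kb). *Il16*, a leukocyte attractant made as a large precursor, had most reads of the interleukins. Per kilobase, by the mean of the group means, *Il18* stood above it in the long-term experiment (10.01 against 6.93 FPM per kb) and below it in the short-term experiment (1.09 against 3.83). None of *Cxcl14*, *Cxcr4*, *Nfkb1* or *Il18* was called in a long-term comparison. *Il6*, *Il10*, *Il2*, *Il4*, *Il13*, *Il17a* and *Osm* were not listed in either table and were not analysed here.

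Some of the members lie close together in the genome (GRCm38.p6). The CC ligands *Ccl2*, *Ccl7*, *Ccl11*, *Ccl12* and *Ccl8* lie at chr11:82035577-82116799, and *Ccl5*, *Ccl9*, *Ccl6*, *Ccl3* and *Ccl4* at chr11:83525778-83664683. *Il1r2*, *Il1r1*, *Il1rl2* and *Il18r1* lie at chr1:40084692-40500854. Genes of 1 such run did not all move together, as the CC ligands below show.

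The first comparison asked what differed between pituitaries after 12 and after 6 weeks on dox. Calls required an absolute log2 fold change over 1 and, by limma with Benjamini-Hochberg adjustment over all tested genes, an adjusted p under 0.05. Fold changes are given on the log2(FPM + 0.5) scale, which understates the change of low genes. At 12w+dox, 14 of 84 members were called (16.7%), where 7.2% of all genes were. Of the 14, 4 were higher (background 3.15%) and 10 lower (background 4.04%). Leaving out 1 mouse moved the number called lower to between 6 (without 12w+dox replicate 2 or 6w+dox replicate 2) and 12. The median log2 fold change of the members was -0.12, where that of all genes was -0.01, and scaling by totals turned it to 0.10, where that of all genes was 0.29. The groups did not overlap for 26 members (31.0%, background 25.2%), and 35 had an unadjusted p under 0.05 (41.7%, background 36.5%).

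The higher members were led by a receptor chain. *Il6ra*, the IL-6 binding chain that pairs with gp130, was 16.3, 19.9 and 20.4 FPM in the 6w+dox mice and 66.7, 83.9, 78.3 and 127 FPM in the 12w+dox mice. The groups were far apart (log2 fold change 2.17, SE 0.21, adjusted p = 0.000136). Its partner *Il6st* was not called (0.39, SE 0.15, adjusted p = 0.0753). *Il16* was 20.6, 18.1 and 13.1 FPM at 6w+dox and 41.7, 56.5, 38.3 and 43.1 FPM at 12w+dox (1.36, SE 0.22), again with no overlap. *Il22ra1*, the specific chain of the IL-22 receptor, was 1.86, 1.65 and 1.95 FPM and then 5.44, 6.85, 5.79 and 3.38 FPM (1.30, SE 0.23). *Ccl6*, a CC ligand that macrophages make, was 0.932, 1.83 and 0.704 FPM and then 4.47, 3.15, 4.22 and 3.18 FPM (1.41, SE 0.35, adjusted p = 0.0121). Of the 14 macrophage markers, 0 were called in this comparison by limma, edgeR or DESeq2 (background 7.2% by limma). An unadjusted p under 0.05 was found for 4 of them (background 36.5%).

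Of the 10 lower members, 6 were chemokine ligands, a role that held 23 of the 84 members. *Ccl5*, which attracts T cells and monocytes, was 3.14, 3.70 and 2.15 FPM at 6w+dox and 1.15, 0.466, 0.801 and 0.838 FPM at 12w+dox. All 4 mice at 12 weeks lay below the 3 at 6 weeks (log2 fold change -1.41, SE 0.24, adjusted p = 0.00163). *Ccl2*, the main attractant of monocytes, was 4.42, 2.41 and 2.24 FPM and then 0.977, 0.991, 0.554 and 0.754 FPM (-1.38, SE 0.32). *Cxcl10*, induced by interferon, was 3.32, 4.59 and 1.86 FPM and then 0.803, 1.22, 1.45 and 0.894 FPM (-1.19, SE 0.32). *Cxcl10* lies wholly within the span of *Art3*, and the counting's use of strand is not given in the sources used here, so reads of the pair cannot be told apart. *Ccl17*, a ligand of CCR4, ranged from 0.640 to 2.27 FPM at 6w+dox and from 0.0616 to 0.279 FPM at 12w+dox (-1.36, SE 0.27). For these 4 ligands the groups did not overlap. The T and NK cell marker sums were also lower in each mouse at 12w+dox than in any at 6w+dox. So were the sums of endothelial, neural lobe and other hormone cell markers. B and plasma cell markers were lower too (3.67 to 4.47 FPM at 6w+dox, 1.08 to 2.71 at 12w+dox). The sums of the remaining lists overlapped, and the part of these lists was not tested.

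*Ccl7* and *Cxcl12* were called lower with overlapping groups. *Ccl7* was 7.51, 6.77 and 2.53 FPM at 6w+dox and 3.21, 2.10, 1.45 and 1.31 FPM at 12w+dox (-1.21, SE 0.39, adjusted p = 0.0379), and the call was lost with sex as a covariate (-0.91, adjusted p = 0.123). *Cxcl12*, made by stromal cells, was 12.1, 19.3 and 20.1 FPM and then 9.56, 5.65, 6.13 and 12.8 FPM (-1.01, SE 0.25). The neighbours of *Ccl2* and *Ccl7* were not called, with *Ccl11* at -0.12 (SE 0.30), *Ccl12* at -0.74 (SE 0.30) and *Ccl8* at 0.25 (SE 0.47). In the other run *Ccl6* was called higher and *Ccl5* lower, and *Ccl9* missed the fold (0.94, SE 0.28, adjusted p = 0.0267).

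The other 4 lower members were *Il33*, *Il1r1*, *Il22* and *Nfkbia*. *Il33*, a nuclear alarmin of stromal cells, was 6.99, 5.39 and 6.25 FPM at 6w+dox and 2.41, 0.933, 2.16 and 2.62 FPM at 12w+dox, with no overlap (-1.46, SE 0.28, adjusted p = 0.00337). *Il1r1*, the signaling IL-1 receptor, was 4.25, 6.01 and 10.4 FPM and then 3.25, 1.66, 1.88 and 2.57 FPM (-1.33, SE 0.30). *Nfkbia*, whose promoter is shown above, was 22.8, 38.7 and 29.6 FPM and then 19.9, 11.2, 13.5 and 13.9 FPM (-1.03, SE 0.20, adjusted p = 0.00307). *Tnfaip3*, the other inhibitor induced by NF-kB, was 4.83, 5.30 and 5.88 FPM and then 9.18, 13.2, 8.47 and 6.90 FPM. All 4 values lay above those at 6w+dox, and the difference passed the adjusted p but missed the fold (0.73, SE 0.23, adjusted p = 0.0365). *Nfkb1* was not called (-0.07, SE 0.15).

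In 6w+dox all mice were female. Among females only (3 against 2), 3 of the members remained called lower and all 10 kept a negative log2 fold change. With totals of reads in place of size factors, 5 members were called lower and 9 higher, and *Ccl7*, *Cxcl10*, *Cxcl12*, *Il22* and *Nfkbia* lost their calls (log2 fold changes -0.95, -0.96, -0.70, -0.97 and -0.71).

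**Figure D2:**
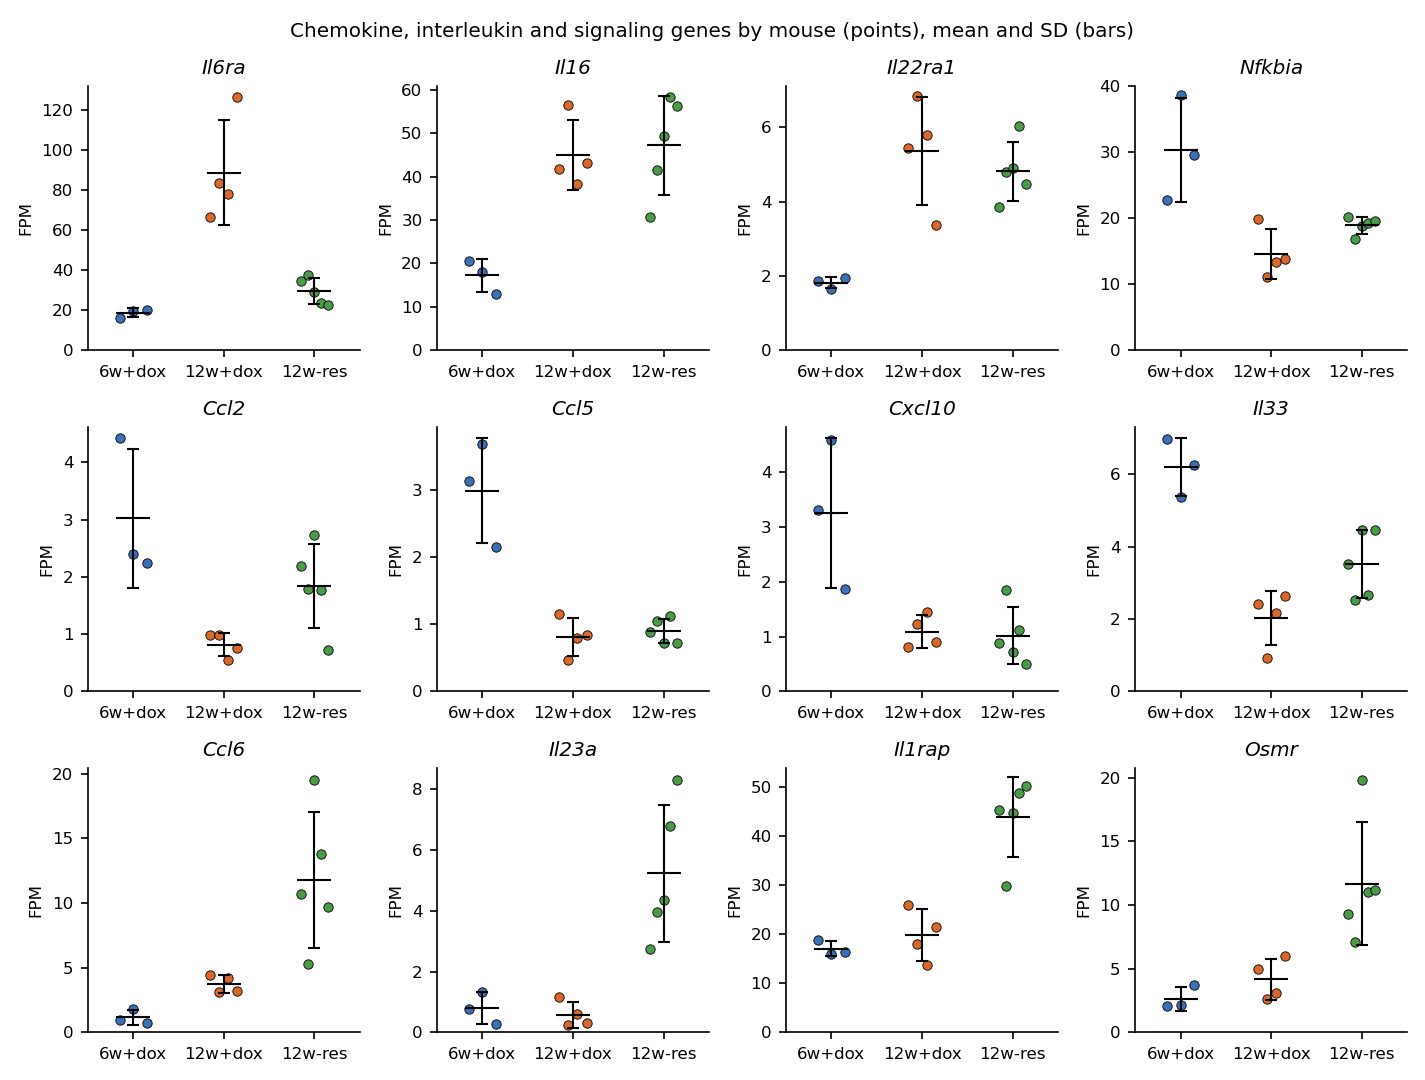
FPM (y axis, from 0) of 12 members in each long-term mouse (points), by group, with the mean (line) and SD (bar). *Il6ra* is high at 12w+dox alone, *Il16* and *Il22ra1* are low at 6w+dox alone, *Nfkbia*, *Ccl2*, *Ccl5*, *Cxcl10* and *Il33* have their highest mean at 6w+dox, and *Ccl6*, *Il23a*, *Il1rap* and *Osmr* are highest in 12w-res, whose 5 mice lie above all the others.

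The second comparison asked what differed between pituitaries 6 weeks after dox removal and pituitaries kept on dox for the same 12 weeks. In 12w-res, 18 of 84 members were called against 12w+dox (21.4%), where 11.3% of all genes were. Of these, 15 were higher (17.9%, background 6.24%) and 3 lower (3.57%, background 5.04%). edgeR called 23 higher (background 8.16%) and DESeq2 24 (background 8.43%). The median log2 fold change of the members was 0.40 against 0.00 for all genes. Scaling by totals turned it to -0.064 where that of all genes was -0.61, and left 3 members called higher (*Il23a*, *Il22* and *Il1rapl2*) and 6 lower. The 15 genes called higher kept a positive log2 fold change under that scaling. The groups did not overlap for 28 members (33.3%, background 34.5%), and 43 had an unadjusted p under 0.05 (51.2%, background 47.3%). The number called higher also moved with single mice, from 10 without 12w+dox replicate 3 to 19 without 12w+dox replicate 1, and the number called lower was 1 without 12w-res replicate 5 and at most 4 without another mouse.

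Among the interleukins, *Il23a* had the largest rise. *Il23a*, the p19 chain of IL-23, was 1.15, 0.233, 0.616 and 0.307 FPM at 12w+dox and 2.76, 3.96, 4.37, 6.79 and 8.29 FPM in 12w-res. Every mouse off dox lay above every mouse on dox (log2 fold change 2.40, SE 0.34, adjusted p = 0.000104). *Il12b*, the partner chain that p19 needs for secretion, and *Il23r*, the specific receptor chain, were not listed and were not analysed here. *Il12a*, the p35 chain that pairs with the same partner to make IL-12, was 0.593, 1.37, 2.71 and 0.838 FPM at 12w+dox and 0.416, 0.370, 0.319, 0.413 and 0.166 FPM in 12w-res. For *Il12a*, the 5 mice off dox lay below the 4 at 12w+dox (-1.05, SE 0.27, adjusted p = 0.00802), opposite in direction to *Il23a*. At 6w+dox *Il12a* was 0.331 to 0.524 FPM and overlapped 12w-res. Reads were few, 8 to 10 per library at 6w+dox and 3 to 8 in 12w-res. The call was lost without 12w+dox replicate 3 (-0.75) or without 12w-res replicate 5 (-0.97). It was also lost with a pseudocount of 1, with the replicate block and among females only.

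The genes most like *Il23a* over the 12 mice, by Pearson's r of log2(FPM + 0.5), were *Uso1* (0.971), *Tekt5* (0.970), *Elk3* (0.970), *Clptm1l* (0.964) and *Edem2* (0.963). These r describe mice of 3 groups and share the difference between them.

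*Il22*, a cytokine of lymphocytes that acts on epithelia, was 2.21, 0.935 and 1.82 FPM at 6w+dox, 0.279, 0.758, 1.05 and 0.0838 FPM at 12w+dox and 2.70, 1.32, 3.69, 2.77 and 3.43 FPM in 12w-res. The level at 12w+dox was the lowest of the 3 groups, below every 12w-res mouse but overlapping 6w+dox. It was called higher in 12w-res (1.70, SE 0.32, adjusted p = 0.00107) and lower at 12w+dox than at 6w+dox (-1.10, SE 0.37, adjusted p = 0.0451). The latter call rested on few reads, 3 to 34 per library at 12w+dox. *Iltifb* is a near-identical copy among which the authors' counting may have split reads. *Iltifb* had 1.17 (SE 0.30, adjusted p = 0.0072) in 12w-res against 12w+dox, and with the reads of both added *Il22* had 1.76 (SE 0.32) and -1.26 (SE 0.37, adjusted p = 0.025).

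Receptor chains, which were 29 of the 84 members, made up 7 of the 18 calls (5 higher and 2 lower). *Il6ra* lay between the groups on dox, at 34.5, 37.8, 29.3, 23.9 and 22.7 FPM in 12w-res. All 5 values lay below the 12w+dox range that begins at 66.7 FPM (log2 fold change -1.56, SE 0.19, adjusted p = 2.91e-05). *Il1rap*, the shared second chain of the IL-1, IL-33 and IL-36 receptors, was 26, 18, 13.7 and 21.5 FPM at 12w+dox and 45.3, 29.8, 44.7, 48.8 and 50.2 FPM in 12w-res. The 12w-res replicate 2 was the lowest of its group but still above each mouse on dox (1.14, SE 0.18, adjusted p = 0.000312). *Il1r1* was 3.69, 5.23, 7.42, 5.25 and 7.18 FPM in 12w-res, again above each 12w+dox mouse (1.14, SE 0.27). The decoy receptor *Il1r2* was 0.66 (SE 0.25, adjusted p = 0.0526), and the ligands *Il1a* (0.02, SE 0.22) and *Il1b* (0.18, SE 0.47) were not called, nor was the antagonist *Il1rn* (0.79, SE 0.43), which was 6.74 FPM in 12w-res replicate 3 and 0.475 to 1.54 FPM in the other 4.

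*Il4ra*, the receptor chain of IL-4 and IL-13, was 12.9, 10.1, 8.07 and 12.6 FPM at 12w+dox and 26.2, 17.3, 24.1, 24.6 and 27.1 FPM in 12w-res (1.10, SE 0.16, adjusted p = 0.000162). *Il2rg*, the common gamma chain of lymphoid and myeloid cells, ranged from 1.05 to 1.78 FPM and then from 2.54 to 3.75 FPM (1.04, SE 0.19). In both the groups did not overlap. The IL-17 family split by chain. *Il17re*, the chain that binds IL-17C, ranged from 1.11 to 1.90 FPM and then from 3.12 to 4.69 FPM (1.13, SE 0.24), while *Il17rd*, also known as a regulator of FGF signaling, ranged from 24.1 to 44.3 FPM and then from 11.9 to 17.8 FPM (-1.02, SE 0.18). *Il17ra*, the shared chain, was -0.16 (SE 0.14). The calls of *Il2rg* and *Il17rd* lay close to the fold threshold, and without 1 mouse at a time their log2 fold changes ranged from 0.95 to 1.14 and from -1.12 to -0.83.

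*Il1rapl2*, which is an adhesion protein of synapses rather than a cytokine receptor, was 13.2, 10.4, 5.98 and 5.08 FPM at 12w+dox and 16.3, 30.6, 25.7, 34.6 and 32.5 FPM in 12w-res. The groups did not overlap (1.69, SE 0.27, adjusted p = 0.000302). Its relative *Il1rapl1* was not called (0.29, SE 0.22).

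Of the chemokine ligands, 3 of 23 were called higher and 0 lower by limma (background 6.24% and 5.04%). An unadjusted p under 0.05 was found for 11 (background 47.3%), of which 2 were lower. edgeR called 8 higher and 0 lower, and DESeq2 8 and 1 (*Cxcl9*). *Ccl6* was 10.7, 5.28, 19.5, 13.8 and 9.73 FPM in 12w-res, each above the 12w+dox mice (1.43, SE 0.31, adjusted p = 0.00238). *Ccl7* was 3.02, 6.71, 9.79, 5.55 and 5.58 FPM (1.37, SE 0.34), and the lowest of these overlapped 12w+dox. *Cxcl12* was 18.3, 16.8, 22.1, 18.2 and 22.0 FPM, all above 12w+dox (1.21, SE 0.22, adjusted p = 0.000893). *Ccl2* missed the fold (0.77, SE 0.28, adjusted p = 0.041), as did *Cxcl16* (0.98, SE 0.20). The interferon-induced ligands did not share this direction, with *Cxcl9* at -0.85 (SE 0.30, adjusted p = 0.0357) and *Cxcl10* at -0.11 (SE 0.28).

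Of the chemokine receptors only *Ccr2*, the monocyte receptor of CCL2 and CCL7, was called. It was 3.59, 1.52, 0.585 and 1.42 FPM at 12w+dox and 5.2, 6.29, 4.23, 3.54 and 2.04 FPM in 12w-res, with overlap at the ends (1.15, SE 0.34, adjusted p = 0.0173). Among the females of both groups alone the value was 0.35 and among the males 2.11, and the interaction with sex was not called (female minus male -1.76, adjusted p = 0.999). Over all genes 13 had an interaction with sex at an adjusted p under 0.05, none of them a member. At an unadjusted p under 0.05 there were 7 of the 84 members. The share of all genes at that threshold was not computed, so no reading of this count is given. *Ccr1* (0.91, SE 0.30, adjusted p = 0.0267), a receptor of several CC ligands, passed the adjusted p but not the fold.

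The 7 listed signaling genes held 3 calls, all higher. *Osmr*, the oncostatin M receptor chain that pairs with gp130, was 4.95, 2.59, 3.11 and 6.03 FPM at 12w+dox and 9.31, 7.08, 19.8, 11 and 11.2 FPM in 12w-res, with no overlap (1.37, SE 0.29, adjusted p = 0.00236). *Ptgs2*, the inducible cyclooxygenase, was 1.15, 0.962, 0.955 and 1.01 FPM and then 2.34, 1.80, 4.73, 2.95 and 2.60 FPM (1.10, SE 0.34, adjusted p = 0.0192). *C5ar1*, the myeloid receptor of complement C5a, was 0.907, 0.816, 0.524 and 1.17 FPM and then 2.03, 1.43, 4.19, 1.83 and 2.76 FPM (1.07, SE 0.29, adjusted p = 0.00993). The 12w-res replicate 3 was the highest of its group for all of these and for *Ccl6*, *Ccl7*, *Ccl9*, *Ccr1* and *Il1rn*. It was also the highest for the sums of macrophage markers (315 FPM, others 214 to 255) and pan-leukocyte markers (57.8 FPM, others 36.0 to 41.3), whose part was not tested. Without it, *Osmr* had 1.16 and kept its call, while *Ptgs2* (0.93) and *C5ar1* (0.89) did not.

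*Tnfaip3* passed the adjusted p but missed the fold (-0.81, SE 0.20, adjusted p = 0.00681), and *Nfkbia* (0.40, SE 0.17, adjusted p = 0.0831), *Nfkb1* (-0.11, SE 0.13) and *Lif* (0.28, SE 0.26) were not called. *Lif* had 0.594 ± 0.183 FPM at 6w+dox, 0.529 ± 0.134 at 12w+dox and then 0.800 ± 0.395 (SD) in 12w-res.

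**Figure D3:**
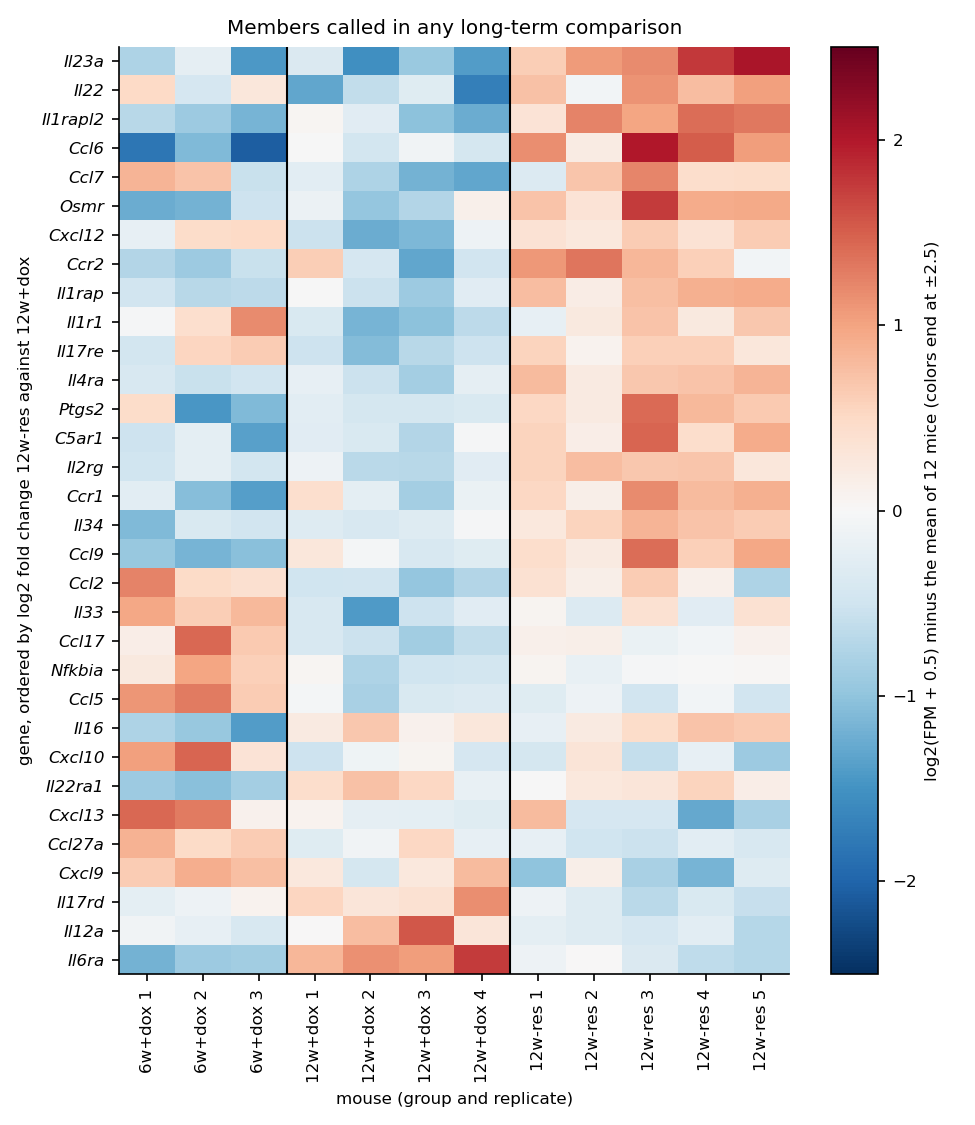
Each row is 1 member called in any long-term comparison and each column 1 mouse, with color for log2(FPM + 0.5) minus the mean of the 12 mice (red higher, blue lower, on the authors' scale). *Il6ra* (bottom row) is red in the 4 mice at 12w+dox alone, and the upper rows, led by *Il23a*, are mostly red in 12w-res, with replicate 3 darkest for *Ccl6*, *Osmr*, *Ptgs2* and *C5ar1*.

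The third comparison set the 12w-res pituitaries against the 6-week stage at which dox had been removed. It shares its mice with the 2 comparisons above, so the values are given for themselves. Here 19 of 84 members were called (22.6%), where 11.6% of all genes were. The 14 called higher were 16.7% of members (background 5.81%), and the 5 called lower were 5.95% (background 5.82%). The median of the members was 0.15 and that of all genes -0.02, and scaling by totals turned these to -0.12 and -0.33. The groups did not overlap for 35 members (41.7%, background 32.7%), and 41 had an unadjusted p under 0.05 (48.8%, background 44.0%).

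*Ccl6* had the largest difference from the 6-week stage (log2 fold change 2.84, SE 0.33, adjusted p = 2.52e-05), and *Ccl9*, its neighbour, was 0.699, 0.534 and 0.621 FPM at 6w+dox and 2.65, 2.22, 5.64, 3.01 and 4.03 FPM in 12w-res (1.78, SE 0.26). Both groups were apart for the pair. The receptors *Ccr1*, which binds CCL6 and CCL9, and *Ccr2* were called at 1.61 (SE 0.32) and 1.48 (SE 0.38). The genes most like *Ccl6* over the 12 mice were *Clec4n* (r = 0.972), *Lyz2* (0.972), *Acp5* (0.971), *Hmox1* (0.969) and *Tlr13* (0.966), again as a description of mice in 3 groups. *Osmr* had 1.92 (SE 0.32), *Il23a* 2.14 (SE 0.37), *Il1rapl2* 1.97 (SE 0.29), *C5ar1* 1.42 (SE 0.32), *Il1rap* 1.31 (SE 0.20) and *Il4ra* 1.13 (SE 0.18). *Ptgs2* had 1.42 (SE 0.37), with 6w+dox replicate 1 at 2.21 FPM inside the 12w-res range.

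*Il16* (1.41, SE 0.21) and *Il22ra1* (1.19, SE 0.22) stood at their 12-week levels in mice off dox as well. *Il16* was 30.6, 41.6, 49.2, 58.3 and 56.3 FPM in 12w-res and differed from 12w+dox by 0.05 (SE 0.19), and *Il22ra1* differed by -0.12 (SE 0.20). *Il34*, a second ligand of the CSF-1 receptor of macrophages, was 1.22, 2.32 and 2.15 FPM at 6w+dox and 3.90, 4.91, 6.19, 5.55 and 5.25 FPM in 12w-res. All 5 mice lay above the 3 (1.26, SE 0.21, adjusted p = 0.000499).

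The 5 lower members were all chemokine ligands, a role that held 23 of the 84 members, and 2 ligands were called higher. *Ccl5* was 0.884, 1.06, 0.728, 1.12 and 0.718 FPM in 12w-res (-1.30, SE 0.23, adjusted p = 0.00073) and *Cxcl10* was 0.884, 1.85, 0.728, 1.12 and 0.497 FPM (-1.30, SE 0.30). *Cxcl9*, like *Cxcl10* a ligand of CXCR3, was 1.22, 1.60 and 1.37 FPM at 6w+dox and 0.0520, 0.740, 0.137, 0 and 0.387 FPM in 12w-res (-1.39, SE 0.32). *Cxcl13*, the B cell attractant, was 3.96, 3.56 and 1.28 FPM and then 2.34, 0.740, 0.728, 0.177 and 0.442 FPM (-1.38, SE 0.40), where 12w-res replicate 1 overlapped. *Ccl27a* was 23.1, 17.5 and 19.8 FPM and then 10.8, 8.66, 8.47, 10.3 and 9.34 FPM (-1.04, SE 0.19). *Ccl27a* overlaps *Il11ra1* by 7 bases and has near-identical copies, so its reads are uncertain. The sums of T and NK cell markers were 10.1 FPM in 12w-res replicate 1 and 4.59 to 7.24 in the other 4 mice, which lay below the 8.20 to 9.08 at 6w+dox. Of the 6 listed T and NK cell genes 5 had a negative log2 fold change (median -0.50) and *Nkg7* was called lower. The sums of the other hormone cell markers were lower as well, at 17366 to 35016 FPM in 12w-res against 58705 to 94212 at 6w+dox. Several other lists, such as macrophages and fibroblasts, were higher. The part of these lists was not tested.

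**Figure D4:**
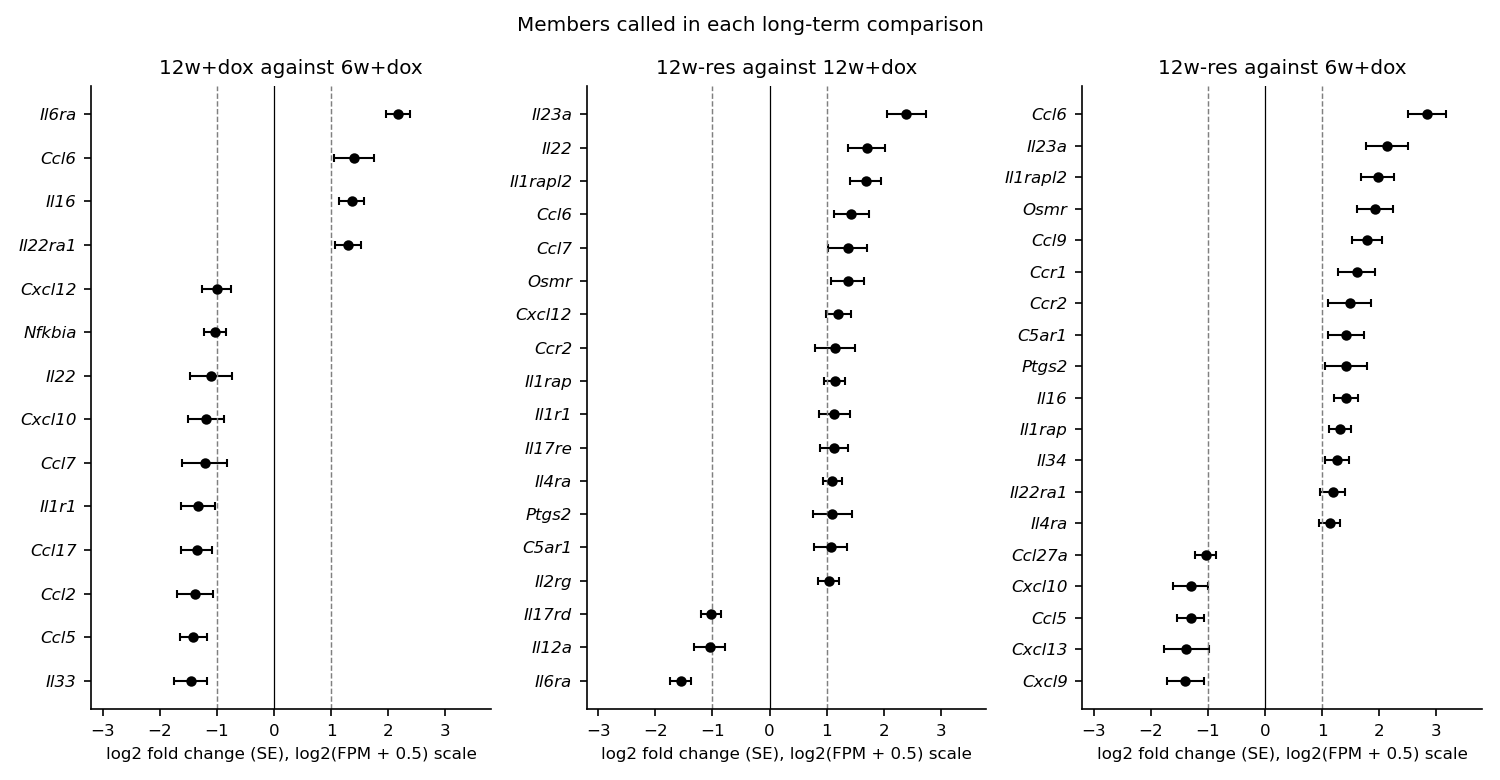
Members called in each long-term comparison (y axis), with the log2 fold change on the log2(FPM + 0.5) scale (x axis, points) and its SE (bars), on the authors' scale. Dashed lines mark the fold threshold, and calls lean to the left in 12w+dox against 6w+dox and to the right in both comparisons of 12w-res.

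The other genes of these pathways were counted on fixed lists. Of 26 NF-kB core genes, 0 were called in the first comparison and in 12w-res against 12w+dox, and 1 (*Tnfrsf1b*, the second TNF receptor, 1.04, SE 0.21) in 12w-res against 6w+dox. The median of the NF-kB list was 0.06, -0.01 and 0.00 in the order of the comparisons above, close to that of all genes. edgeR and DESeq2 called the same numbers of NF-kB genes as limma, and 8, 9 and 11 of the 26 had an unadjusted p under 0.05. Of all genes, 36.5%, 47.3% and 44.0% had such a p, and limma called 7.2%, 11.3% and 11.6%. These shares are the background for the other lists of this paragraph as well. Of 23 JAK-STAT and SOCS genes, *Socs4* (1.22, SE 0.30) was called higher and *Cish* (-1.01, SE 0.34) lower at 12w+dox than at 6w+dox, and 0 in the comparisons of 12w-res, where edgeR and DESeq2 called 0 as well and 11 and 8 had an unadjusted p under 0.05. At 12w+dox edgeR and DESeq2 called *Socs4* higher but *Stat4*, not *Cish*, lower. Of 19 Toll-like and IL-1 receptor genes, 0, 3 and 3 were called by limma, all higher (background 6.24% in 12w-res against 12w+dox and 5.81% against 6w+dox). They were *Tlr5* (1.91, SE 0.33), *Cd14* (1.09, SE 0.31) and *Ticam1* (1.05, SE 0.15) in 12w-res against 12w+dox, and *Tlr4*, *Tlr5* and *Tlr8* against 6w+dox. In the first comparison 6 genes of this list had an unadjusted p under 0.05, and edgeR called 0 and DESeq2 1 (*Tlr7*). In 12w-res against 12w+dox edgeR and DESeq2 each called 6, all higher, with *Irak3*, *Tlr6* and *Tlr8* added, and against 6w+dox edgeR called 3 and DESeq2 4.

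Of the LIF and oncostatin family, 5 of 7 genes were tested. *Cntfr*, the CNTF receptor, was called at 2.73 (SE 0.27, adjusted p = 3.86e-06) and its ligand *Clcf1* at 1.28 (SE 0.27) in 12w-res against 12w+dox. At 12w+dox *Cntfr* was called lower than at 6w+dox by edgeR and DESeq2 but not by limma. All of these tests called *Cntfr* higher in 12w-res than at 6w+dox. The complement list (10 of 12 tested) held *C3* at 1.74 (SE 0.46) at 12w+dox against 6w+dox, at 2.09 (SE 0.40) in 12w-res against 12w+dox and at 3.83 (SE 0.44) against 6w+dox. Of the prostaglandin and leukotriene genes (18 of 20 tested), *Alox5ap* (1.39, SE 0.20) and *Hpgd* (1.26, SE 0.23), which degrades prostaglandins, were called higher by limma in 12w-res against 12w+dox, and edgeR and DESeq2 called 4, with *Ptger4* and *Ptgir* added. Against 6w+dox, 4 were higher and *Ptgds*, the brain-type prostaglandin D synthase, lower (-1.60, SE 0.31). Of other chemokine system genes (8 of 12 tested), *Cmklr1* was called in 12w-res against both groups on dox (1.02, SE 0.27, and 1.45, SE 0.29). Of colony-stimulating factor genes (8 of 11 tested), *Csf2rb*, the shared chain of the GM-CSF and IL-3 receptors, was higher in each comparison (1.08, SE 0.32; 1.01, SE 0.28; and 2.08, SE 0.31), and *Flt3l* was lower in 12w-res against 6w+dox (-1.11, SE 0.26). In 12w-res against 12w+dox, where 6.24% of all genes were called higher by limma, the complement list held 2 calls by limma and 3 by edgeR and by DESeq2, and the other chemokine system list 1 and 2.

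In the short-term experiment, no member was called by limma or edgeR at any time after dox removal, and DESeq2 called 2. Of 49 tested members, 0 were called by limma at 1d, where 0.043% of all genes were, 0 at 3d (0.129%), 0 at 5d (0.193%) and 0 at 5d against 1d (0.0143%). Of all genes, 0.00716% were called higher and 0.0358% lower at 1d, 0.0788% and 0.0502% at 3d, 0.086% and 0.107% at 5d, and 0.00716% in each direction at 5d against 1d. The groups did not overlap for 4 members at 1d (background 11.2%), 10 at 3d (21.6%), 13 at 5d (19.3%) and 5 at 5d against 1d (7.8%). At an unadjusted p under 0.05 there were 5 members at 1d (background 13.1%), 8 at 3d (16.6%), 12 at 5d (13.5%) and 4 at 5d against 1d (6.33%). edgeR's quasi-likelihood test on the recovered reads called 0 in each, and DESeq2 called 2, both lower at 5d (background 0.754%). These were *Il1r1* (-1.54, adjusted p = 0.0156) and *Cxcl12* (-1.60, adjusted p = 0.0334). Males made up the groups at 16w and 3d and females those at 1d and 5d, so time off dox and sex cannot be told apart in the comparisons of 1d and 5d with 16w.

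The members with the smallest p are given by mouse. *Il1r1* was 0.849, 1.10 and 0.995 FPM at 16w +dox, 0.438, 0.336, 0.474 and 0.631 FPM at 1d, 1.17, 0.694 and 1.38 FPM at 3d and 0.252, 0.364 and 0.394 FPM at 5d. The 2 female groups lay below the male groups with no overlap. By limma it had -0.82 (SE 0.18, adjusted p = 0.0642) at 5d and -0.61 (SE 0.17, adjusted p = 0.139) at 1d. *Il34* was 0.474, 0.561 and 0.510 FPM at 16w +dox and then 0.180, 0.122, 0.249 and 0.187 FPM at 1d, 0.413, 0.163 and 0.309 FPM at 3d and 0.140, 0.0779 and 0.197 FPM at 5d. All 10 mice off dox lay below the 3 on dox, but the 1d and 5d groups were female and the others male. By limma *Il34* had -0.67 (SE 0.15, adjusted p = 0.0727) at 5d. In the male comparison at 3d it had -0.36 (SE 0.15, unadjusted p = 0.0313, adjusted p = 0.248). Its reads were few, 3 to 21 per library. *Cxcl12* ranged from 1.17 to 3.39 FPM at 16w +dox and from 0.505 to 0.831 FPM at 5d (-0.99, SE 0.31, adjusted p = 0.178). Endothelial markers moved in the same samples, with sums of 24.5 to 44.2 at 16w +dox, 13.6 to 18 at 1d, 23.7 to 45.9 at 3d and 11.1 to 15.4 at 5d, as did fibroblast markers with 73.5 to 84.4, 27.8 to 51.5, 49.0 to 110 and 28.3 to 56.2. Their part in these values was not tested.

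In the male comparison at 3d, *Il16* was 19.9, 20.9 and 22.5 FPM at 16w +dox and 14.4, 17.6 and 12.0 FPM at 3d (-0.53, SE 0.12, adjusted p = 0.0783). *Il3ra*, the IL-3 binding chain, was 2.5, 2.14 and 2.25 FPM and then 1.35, 1.16 and 1.34 FPM (-0.65, SE 0.15, adjusted p = 0.0724). The groups were apart for both, but neither passed the adjusted p by limma. By DESeq2 both passed it (adjusted p = 0.0126 for *Il16* and 0.00986 for *Il3ra*) and missed the fold (-0.53 and -0.84). At 5d, a female group, *Il3ra* was 2.86, 2.86 and 2.70 FPM, above the male 16w +dox group, and sex and time cannot be told apart there. Between the 2 female groups it was higher at 5d than at 1d by limma (0.41, SE 0.14, unadjusted p = 0.00991), but it did not pass the adjusted p (0.655).

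The members that led the long-term comparisons were at these levels soon after dox removal. *Il23a* was 0.275, 0.481 and 0 FPM at 16w +dox, 0.0611 to 0.155 FPM at 1d, 0.143 to 0.282 FPM at 3d and 0.477, 0.519 and 0.535 FPM at 5d. Between the 2 female groups, the 5d mice lay above the 1d mice (0.71, SE 0.19, unadjusted p = 0.00213, adjusted p = 0.528). *Il12a* was 0.349, 0.347 and 0.459 FPM at 16w +dox, 0.702 to 1.13 FPM at 1d, 0.304 to 0.734 FPM at 3d and 0.589, 0.805 and 1.10 FPM at 5d. Both female groups lay above 16w +dox (0.63, SE 0.18, adjusted p = 0.156 at 1d and 0.57, SE 0.19, adjusted p = 0.219 at 5d) and overlapped each other. *Il6ra* was 27.2, 30.4 and 34.4 FPM at 16w +dox, 22.8 to 31.4 FPM at 1d, 28.1 to 36.5 FPM at 3d and 24.0, 25.0 and 21.1 FPM at 5d (-0.38, SE 0.13, adjusted p = 0.229). *Nfkbia* ranged from 2.77 to 5.88 FPM over all 13 mice and its groups overlapped. *Ccl6* ranged from 0.374 to 3.32 FPM, and its groups overlapped too. These FPM come from other libraries and another scaling than the long-term values and cannot be set against them.

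**Figure D5:**
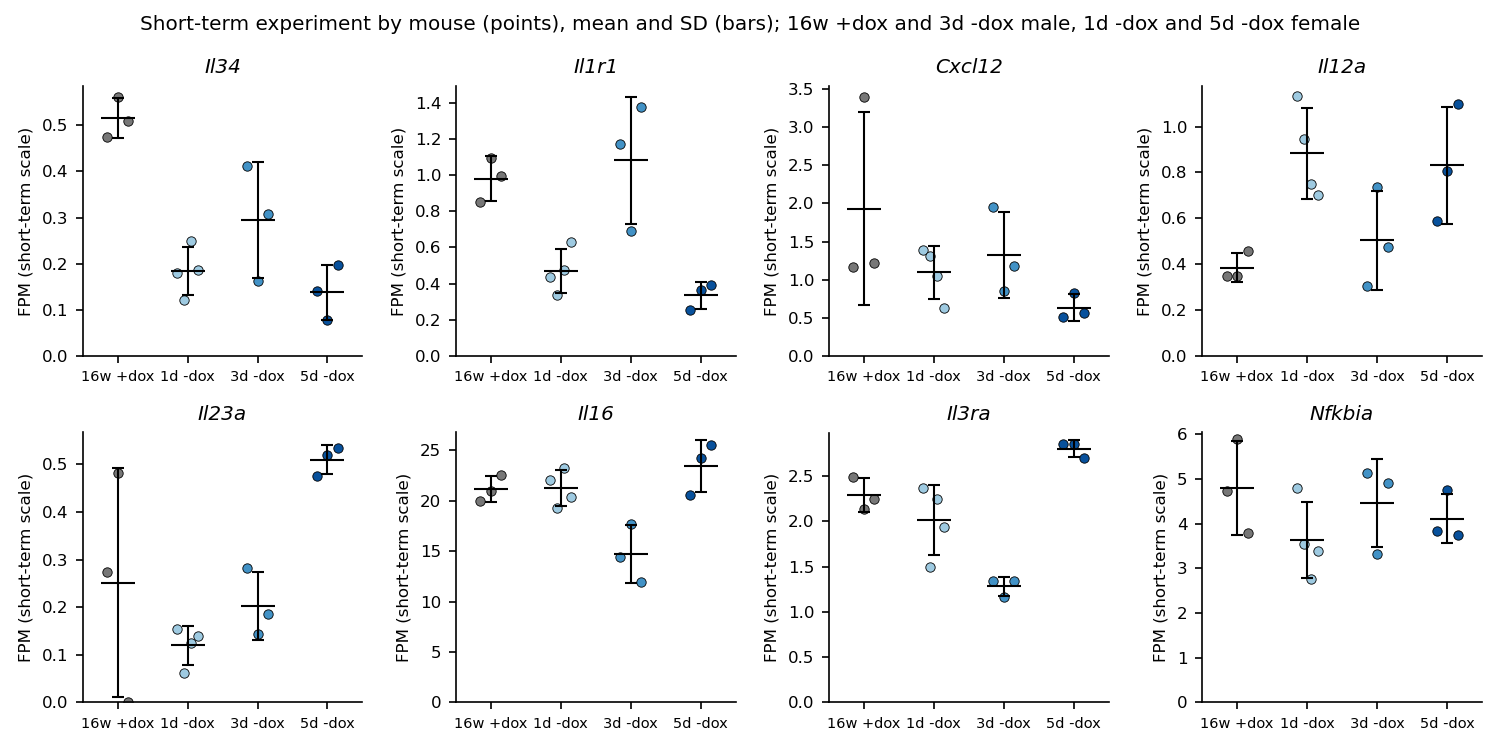
FPM (y axis, from 0, short-term scale) of 8 members in each mouse (points) of the short-term experiment by group (x axis), with the mean (line) and SD (bar). *Il1r1* is lower in the 2 female groups (1d -dox and 5d -dox) than in the male groups, *Il3ra* is lowest at 3d -dox, *Il23a* at 5d -dox lies above 1d -dox, and *Nfkbia* overlaps across the groups.

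The lists of other genes held no call by limma either. None of the NF-kB (25 tested), JAK-STAT (22), Toll-like (13), prostaglandin (12), complement (10), colony-stimulating factor (8), other chemokine system (6) or LIF family (4) genes was called by limma in any of the 4 short-term comparisons. Of these 100 genes, 13 had an unadjusted p under 0.05 at 1d (background 13.1%), 12 at 3d (16.6%), 16 at 5d (13.5%) and 6 at 5d against 1d (6.33%). edgeR called 0 of them, and DESeq2 called *C2* higher at 1d and *Csf2ra* and *Csf2rb* higher at 3d. The neutrophil markers summed to 30.3 in 3d -dox replicate 3, where the other 2 mice at 3d had 0.826 and 1.82 and the remaining groups at most 2.88. By limma no member was called with or without that mouse.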

How the data were processed

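Whole-pituitary RNA of sh*Rb* mice (long-term, 12 mice; short-term, 13 mice) was studied through 2 deposited tables. The authors mapped paired reads with STAR to mm10, counted them on RefSeq genes and deposited a signal per gene and mouse, scaled by DESeq2 size factors (FPM). The counting tool and its use of strand are not given in the sources used here. All values were whole multiples of 1 read (100% of 183780 and of 182091 values, within 0.1 read), so reads were recovered. Lines that name no gene (2 long-term, 4 short-term) were left out. Of chromosome X, 518 genes were listed long-term and 1 short-term, and 4 members lie there.

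The read minimum was 10, to be met by over 50% of any group, which left 15315 and 13958 genes. The main test was limma 3.58.1 (R 4.3.3, trended prior) on log2(FPM + 0.5), with all mice of a table in 1 fit and Benjamini-Hochberg adjustment over all genes. edgeR 4.0.16 and DESeq2 1.42.0 on recovered reads, other scalings, pseudocounts, filters, sex, a replicate block and each mouse left out were alternatives. Each test was tested on simulated data. The labels number the samples of a group, do not say outright that each is 1 animal and give no batch, so p-values measure the spread between these samples. The text names called members, up to 15 per comparison and direction, the listed symbols, the member with most reads per role, up to 4 called genes per pathway list and the genes most alike to the leading member. Other members were named after their values were seen. Members, roles and lists were chosen with earlier results of these data known. A few genes of the lists are counted but not reported by name here.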

Additional observations from a re-analysis of the deposited data

Results flagged for a closer look

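In groups of 4 or 5 mice, the value of 1 mouse stood apart from the others of its group by Dixon's 95% criterion in 12 of 217 tests of a member, and chance flags about 1 in 20. Long-term, *Il1rn* was 6.74 FPM (148 reads) in 12w-res replicate 3, where the others had 0.475 to 1.54. *Ccl11* was 6.92 FPM in 12w-res replicate 2 (others 2.32 to 3.54), and *Il1rap* was 29.8 FPM in the same mouse (others 44.7 to 50.2). *Cxcl13* was 2.34 FPM in 12w-res replicate 1 (others 0.177 to 0.740) and 1.26 FPM in 12w+dox replicate 1 (others 0.838 to 0.904). *Il18r1* was 1.81 FPM in that 12w+dox mouse (others 0.246 to 0.466).

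Short-term, all 6 such values were in 1d -dox, the only group of 4 there. *Tnfaip3* was 6.71 FPM (others 3.74 to 4.18) and *Il17rc* was 0.848 FPM (others 1.01) in replicate 3. *Il1rap* was 6.44 FPM in replicate 2 (others 5.36 to 5.44). *Cxcl9* was 1.39 FPM (others 0 to 0.224) and *Il21r* 0.335 FPM (others 0 to 0.0249) in replicate 1. *Ccl9* was 0.0234 FPM, 1 read, in replicate 4 (others 0.0916 to 0.103).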

How the results depend on the processing

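No call of a member changed direction under any alternative. Of 51 calls of members in the long-term comparisons, DESeq2, TMM scaling, a pseudocount of 0.1 and no filter kept 51, edgeR 50, sex as a covariate 47, a pseudocount of 1 39, females only 36 and totals of recovered reads 30, and leaving out 1 mouse kept 376 of 412. With a minimum of 10 reads in every sample, all 36 calls that could be tested were kept. The call lost most often was that of *Il22* at 12w+dox. At 12w+dox against 6w+dox, 4 members were called higher and 10 lower; totals gave 9 and 5, no minimum fold change 7 and 16, a pseudocount of 1 gave 6 lower and females only 3 lower. In 12w-res against 12w+dox, 15 were higher and 3 lower; edgeR gave 23 higher and DESeq2 24, totals 3 and 6, no minimum fold change 30 and 5, and a pseudocount of 1, the replicate block and females only gave 1 lower each. In 12w-res against 6w+dox, 14 were higher and 5 lower; no minimum fold change gave 23 and 8, and 10 reads in every sample gave 2 lower. Scaling by totals gave medians of 0.10, -0.064 and -0.12 for the members, where those of all genes were 0.29, -0.61 and -0.33. At 5d -dox DESeq2 called 2 members. The causes were not tested. Without 1 mouse, the calls ranged from 4 to 5 higher and 6 to 12 lower (6 without 12w+dox replicate 2 or 6w+dox replicate 2), 10 to 19 higher and 1 to 4 lower (1 without 12w-res replicate 5), and 14 to 18 higher and 4 to 5 lower, and stayed at 0 short-term.

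Replicate numbers were shared by the groups. Correlations of deviations between same-numbered mice were of both signs (from -0.21 to 0.24), and mice were not paired in the main test. Such correlations cannot show whether same-numbered mice shared a batch. The replicate block kept 45 of 51 calls. Adding the reads of *Iltifb* to *Il22*, chosen after seeing the data, kept both calls of *Il22*. In the short-term experiment sex could not be a covariate, and members with few reads have the least precision.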
